A study of Homo sapiens and Mus musculus with 36 samples.

Results

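The 10 genes described here, MLKL, RIPK1, RIPK3, CASP8, FAS, TNFRSF10B, BBC3, PMAIP1, APAF1 and BCL2L1, regulate programmed cell death by apoptosis or necroptosis. They were chosen as a list of symbols, and every probe set that carries only that symbol was read in human HepaRG cells and, with the symbol in mouse case, in mouse liver. On the human array 8 of the 10 genes had such a probe set, 23 probe sets in all among 41091 that stand for 19775 genes. On the mouse array 9 of the 10 had one, 14 probe sets among 34945 that stand for 18193 genes. RIPK1 on both arrays and BBC3 on the human array were not analysed here. Where a gene had several probe sets, its level and its call are those of the leading probe set. That probe set has the highest average across that species' arrays. Values of some of the other probe sets, not of all, are given beside it.

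Apoptosis can start at death receptors on the cell surface, such as FAS and TNFRSF10B, which recruit the initiator caspase CASP8. It can also start at mitochondria, where BH3-only proteins such as BBC3 (PUMA) and PMAIP1 (NOXA) oppose protective proteins such as BCL2L1 (BCL-XL), and where released cytochrome c joins APAF1 to form the caspase-activating apoptosome. When CASP8 is not active, the kinases RIPK1 and RIPK3 can phosphorylate the pseudokinase MLKL, which then breaches the plasma membrane in necroptosis. Hepatocytes carry FAS and can die through either arm, and the RIPK3 level of healthy hepatocytes is commonly reported to be low.

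The series measured RNA on Affymetrix arrays in 36 samples, and its title concerns how robust an adverse outcome pathway of cholestasis is. Mouse liver was collected from Sv129 mice 6 weeks after surgery, from 6 animals in which the common bile duct was ligated (CBDL) and from 6 sham-operated animals whose duct was isolated without ligation. The age of the mice was not given in the sources used here. HepaRG is a single line from a human hepatoma, used here as differentiated, cryopreserved cells, so its 8 groups of 3 arrays describe that line only. All cultures were exposed for 72 h, to the vehicle (control), to a bile acid mixture concentrated 50 times, to atazanavir at 60 µM (an HIV protease inhibitor), to cyclosporin A at 20 µM (a calcineurin inhibitor), to nefazodone at 30 µM (an antidepressant), or to each drug together with the mixture. The doses differ between the drugs, so differences between drugs are differences between these treatments and not between equal exposures. The series text names 3 batches of HepaRG cells, no label ties a replicate number to a batch, and the main fit held no batch. A p value sets a difference between group means against the spread between samples within groups.

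All levels are log2 values. The dimmest 1 in 3 genes had mean levels up to 5.40 in mouse and up to 4.27 in HepaRG cells, and a level under that line is called dim, since it may be background. The lowest correlation of an array with another of its group, over genes, was 0.9805 in mouse and 0.9908 in HepaRG cells. Hepatocyte markers such as albumin marked the mouse tissue as liver, with list means between 14.19 and 14.33 over all 12 livers. Cells of other types were not equal between the mouse groups: the macrophage list lay at 9.31 to 10.41 in ligated livers and at 7.71 to 8.22 in sham livers, and the stellate or fibroblast list at 8.39 to 8.85 against 6.82 to 7.82. The cholangiocyte list lay at 5.87 to 7.83 against 4.96 to 6.56, and 3 of its 6 measured markers rose. The liver CBDL 1 stood apart with a neutrophil list at 8.28, against 5.68 to 6.03 in the other ligated livers. CBDL 1 was also the highest ligated liver for the macrophage list at 10.41 and the cholangiocyte list at 7.83. The same held for its lymphocyte list at 6.48 and its endothelial list at 8.11. The liver sham 2 stood apart with an intestinal epithelium list at 8.91, against 5.47 to 5.64 in the other sham livers. Its cholangiocyte list was at 6.56, against 4.96 to 5.63 in the other sham livers. In HepaRG cells all 8 hepatocyte markers fell under each drug, and their list mean was 11.62 to 12.02 in control, 10.36 to 10.86 with the mixture, 8.55 to 8.95 with atazanavir, 9.79 to 10.65 with cyclosporin A and 8.98 to 9.35 with nefazodone. In whole tissue or a mixed culture, fewer cells of a type and less RNA per cell cannot be told apart. The part of these marker differences in the changes below was not tested.

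The promoter windows of 3 members are shown, those of the necroptosis effector MLKL, the protective BCL2L1, and APAF1, which fell where others rose. This choice does not follow the size of the changes. The window of PMAIP1, the member with the highest change in HepaRG cells, is not printed. A RefSeq window (build GRCh38.p14, 250 bases before to 50 bases after an annotated start, 300 bases in all) was found for 8 of the 10 members. Capitals mark TGACG, the core of the cyclic AMP response element (CRE) that ATF family factors bind, on either strand.
MLKL, chr16:74700813-74701112, minus strand: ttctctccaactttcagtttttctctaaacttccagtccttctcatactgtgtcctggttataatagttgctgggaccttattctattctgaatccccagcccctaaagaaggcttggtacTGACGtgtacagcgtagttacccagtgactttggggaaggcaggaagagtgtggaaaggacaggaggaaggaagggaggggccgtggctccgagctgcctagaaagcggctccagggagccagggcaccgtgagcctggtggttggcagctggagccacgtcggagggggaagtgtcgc
BCL2L1, chr20:31723914-31724213, minus strand: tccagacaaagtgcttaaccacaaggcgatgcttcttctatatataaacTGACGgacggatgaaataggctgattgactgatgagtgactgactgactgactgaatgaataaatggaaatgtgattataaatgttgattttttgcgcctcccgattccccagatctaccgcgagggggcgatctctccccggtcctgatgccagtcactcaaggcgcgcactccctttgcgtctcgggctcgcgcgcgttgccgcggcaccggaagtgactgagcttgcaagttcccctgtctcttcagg
APAF1, chr12:98645040-98645339, plus strand: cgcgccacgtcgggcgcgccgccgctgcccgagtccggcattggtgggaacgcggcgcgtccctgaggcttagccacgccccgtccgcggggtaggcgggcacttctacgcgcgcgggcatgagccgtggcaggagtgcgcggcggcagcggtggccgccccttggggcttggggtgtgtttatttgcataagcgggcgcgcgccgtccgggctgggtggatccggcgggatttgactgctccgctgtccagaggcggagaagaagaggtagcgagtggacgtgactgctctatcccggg
The MLKL window held TGACG with its first base at position -129 from the start, and the printed BCL2L1 window at position -201. A second BCL2L1 window, at another annotated start (chr20:31722819-31723118), held none of the 6 motifs. The window of PMAIP1 held it on the other strand at position -55. The APAF1 window held no match to any of the 6 motifs searched. TGACG was present in 24.6% of all 35116 promoter windows, so a match is common. The full site TGACGTCA was present in 1.85%, the C/EBP-ATF element TGATGNAA in 3.62%, the interferon-stimulated element GAAANNGAA in 8.11%, TATAAA in 11.5% and the p53 half-site in 6.63%. None of these 3 printed windows held the full CRE site, the C/EBP-ATF element, the interferon-stimulated element or the p53 half-site, and TATAAA was found at positions -208 and -125 in the printed BCL2L1 window. Among windows not printed, TGACG was also found for RIPK1, the interferon-stimulated element for CASP8, RIPK1 and BBC3, TATAAA for RIPK1 and CASP8, and the p53 half-site for FAS and CASP8. Each motif was searched on both strands, every full CRE site also holds TGACG, and a match describes letters only.

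In ligated liver 3 of the 9 measured members rose and none fell, by limma at an adjusted p under 0.05: the necroptosis effector Mlkl, the apoptosome scaffold Apaf1 and the death receptor Fas. At an unadjusted p under 0.05 there were 4, with Pmaip1 added. The share of all genes at an unadjusted p under 0.05 was not computed for any comparison. Among all genes, 19.8% were higher and 19.8% lower after ligation, and the median log2 change of the members was 0.27 against -0.05 over all genes. With each array centred on its median, the split of all called genes moved from 3601 higher and 3607 lower to 4174 higher and 2297 lower, and 4 members were called, Pmaip1 among them. After another quantile normalization the split moved the other way, to 2908 higher and 3757 lower, and Fas was not called (limma adjusted p = 0.148). The balance of rises and falls after ligation thus depended on the scaling.

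**Figure D1:**
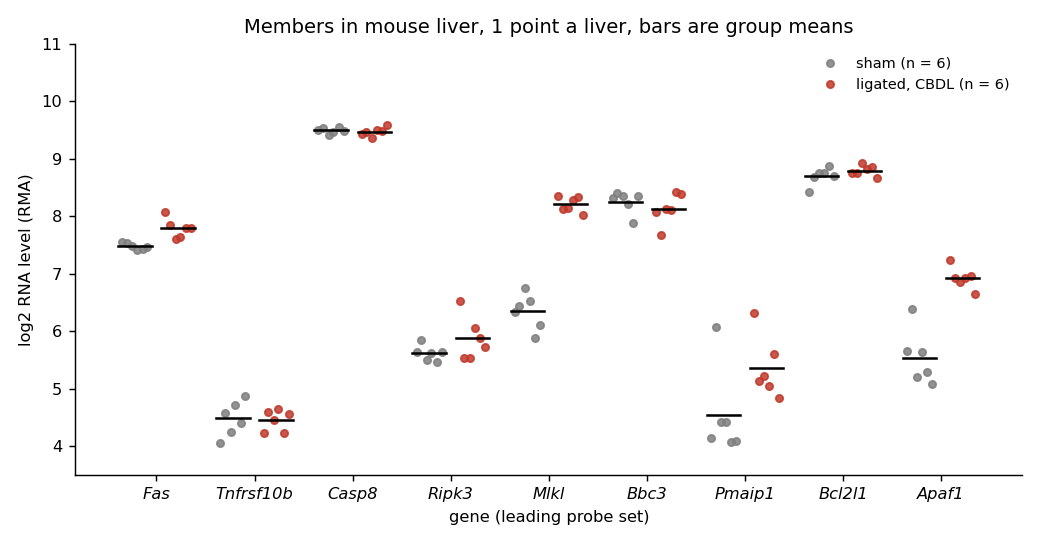
Log2 RNA level of the 9 measured members in mouse liver, with 1 point for each of 6 sham and 6 ligated livers and a bar at each group mean. The groups do not overlap for Fas, Mlkl and Apaf1. Sham 2 lies apart from the other sham livers for Pmaip1 at 6.08 and is the highest sham liver for Apaf1 at 6.38.

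Mlkl, the pseudokinase that carries out necroptosis, stood at 8.35, 8.12, 8.15, 8.29, 8.33 and 8.03 in the ligated livers. In the sham livers it stood at 6.33, 6.44, 6.76, 6.53, 5.89 and 6.11. Every ligated liver lay above every sham liver. The log2 change was 1.87 (SE 0.13, 3.66-fold, adjusted p = 1.13e-07), and it was 1.86 without CBDL 1 and sham 2. The macrophage and stellate lists given above were also higher in every ligated liver than in any sham liver, and the part of those cells in the Mlkl level was not tested. Ripk3, the kinase that activates Mlkl, stood at 5.88 ± 0.38 (SD, n = 6) in ligated and 5.61 ± 0.14 (SD, n = 6) in sham livers. Its groups overlapped, and the difference of 0.27 (95% interval -0.05 to 0.58, adjusted p = 0.167) did not pass the test. The highest Ripk3 level, 6.53, was that of CBDL 1, and without that liver the difference was 0.14. CBDL 1 was the highest ligated liver for the neutrophil, macrophage, cholangiocyte, lymphocyte and endothelial lists, and their part in its Ripk3 level was not tested.

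Of the 2 death receptors measured, Fas ranged from 7.61 to 8.07 with a median of 7.79 in ligated livers. In sham livers it ranged from 7.41 to 7.56. The groups did not overlap, and the log2 change was 0.31 (SE 0.08, adjusted p = 0.00729). It was 0.27 without CBDL 1 and sham 2, and it was 0.15 (adjusted p = 0.148) after the values were quantile-normalized again, which ended the call. Tnfrsf10b, the mouse TRAIL receptor, was dim in both groups, at 4.45 ± 0.19 and 4.48 ± 0.31 (SD, n = 6 each). A second, also dim probe set of Tnfrsf10b was lower by 0.26 after ligation (adjusted p = 0.0151), with CBDL 6 lowest at 4.01. Casp8, the initiator caspase downstream of both receptors, stood at 9.48 ± 0.07 in ligated and 9.50 ± 0.05 in sham livers (SD, n = 6 each). Its difference lay between -0.14 and 0.11 at 95% confidence.

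Apaf1 stood at 7.24, 6.93, 6.85, 6.93, 6.96 and 6.64 in the ligated livers. In sham livers it stood at 5.65, 6.38, 5.21, 5.64, 5.29 and 5.08. The values 5.21, 5.29 and 5.08 lie under the dim line of 5.40, so the sham level may hold background. The groups did not overlap, and the log2 change was 1.39 (SE 0.18, 2.61-fold, adjusted p = 5.83e-05). It was 1.49 without CBDL 1 and sham 2, since sham 2 was the highest sham liver. The other Apaf1 probe set, which is dim, differed by 0.37 (adjusted p = 0.0417), with groups that overlapped, so the size of the Apaf1 change depends on the probe set.

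Of the BH3-only genes, Pmaip1 stood at 6.31, 5.14, 5.22, 5.05, 5.60 and 4.84 in the ligated livers. In the sham livers it stood at 4.14, 6.08, 4.42, 4.42, 4.07 and 4.09. A single sham liver, sham 2 at 6.08, overlapped the ligated group, and CBDL 1 was the highest ligated liver. Both group means were dim, and the difference of 0.82 (95% interval 0.13 to 1.52, adjusted p = 0.0608) did not pass the test. Without sham 2 the difference was 1.13 (adjusted p = 0.00126), without CBDL 1 it was 0.64, and without both it was 0.94 (adjusted p = 0.000143). Bbc3, the other BH3-only gene, was well above the dim line at 8.14 ± 0.27 in ligated and 8.25 ± 0.19 in sham livers (SD, n = 6 each), and its difference lay between -0.38 and 0.14 at 95% confidence.

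The protective Bcl2l1 gave different answers by probe set. Its leading probe set stood at 8.80 ± 0.09 and 8.70 ± 0.15 (SD, n = 6 each), a difference of 0.09 (95% interval -0.07 to 0.26) that did not pass the test. Another probe set was higher by 0.47 after ligation (adjusted p = 0.000683), from 6.58 to 7.03 in sham livers to 7.04 to 7.33 in ligated livers, so that sham 2 at 7.03 nearly met the ligated group. A further probe set was higher by 0.41 (adjusted p = 0.0187) with groups that overlapped, and the fourth was dim with a difference of -0.07. With the mean of all its probe sets taken as the gene's level, Bcl2l1 differed by 0.23 (adjusted p = 0.00641).

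In HepaRG cells members rose both with the mixture and with each drug. Against control, 3 of the 8 measured members rose with the mixture, where 5.87% of all genes were higher and 2.85% lower. With atazanavir 4 rose, against 21.2% of all genes higher and 12.5% lower. With cyclosporin A 4 rose and 1 fell, against 21.4% higher and 17.9% lower. With nefazodone 5 rose and 1 fell, against 24.5% higher and 20.1% lower. The groups did not overlap for any of these called members, but the share of all genes without overlap was not computed. Groups of 3 arrays can lie apart without a call. Where the mixture was added to nefazodone, 5 of 8 members did not overlap and none was called. The median log2 change of the 8 members was 0.11 with the mixture, 0.32 with atazanavir, 0.23 with cyclosporin A and 0.56 with nefazodone. Over all genes it was 0.01, 0.02, 0.04 and 0.01 in the same order. FAS and TNFRSF10B rose in all of these comparisons, and MLKL and PMAIP1 rose with each drug. The comparisons share the same 3 control arrays. Leaving out mixture replicate 2 left 1 of the 3 mixture calls, TNFRSF10B.

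**Figure D2:**
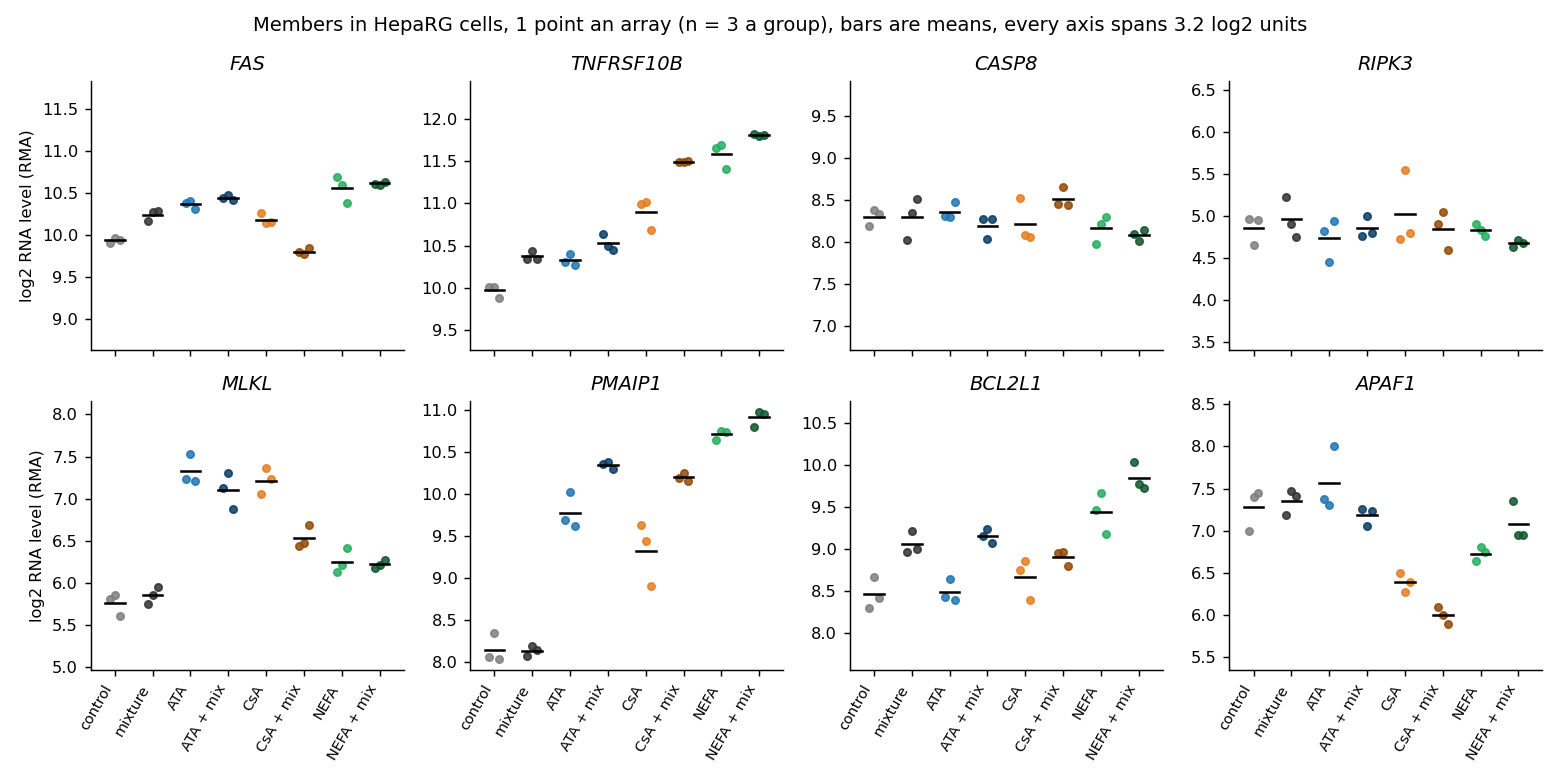
Log2 RNA level of the 8 measured members in HepaRG cells, with 1 point an array, 3 arrays a group and a bar at each group mean, for control, mixture, atazanavir (ATA), cyclosporin A (CsA), nefazodone (NEFA) and each drug with the mixture. Each axis spans the same number of log2 units. PMAIP1 and TNFRSF10B are highest with nefazodone and the mixture, at means of 10.91 and 11.81. MLKL is highest with atazanavir at 7.32 and APAF1 lowest with cyclosporin A and the mixture at 5.99.

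**Figure D3:**
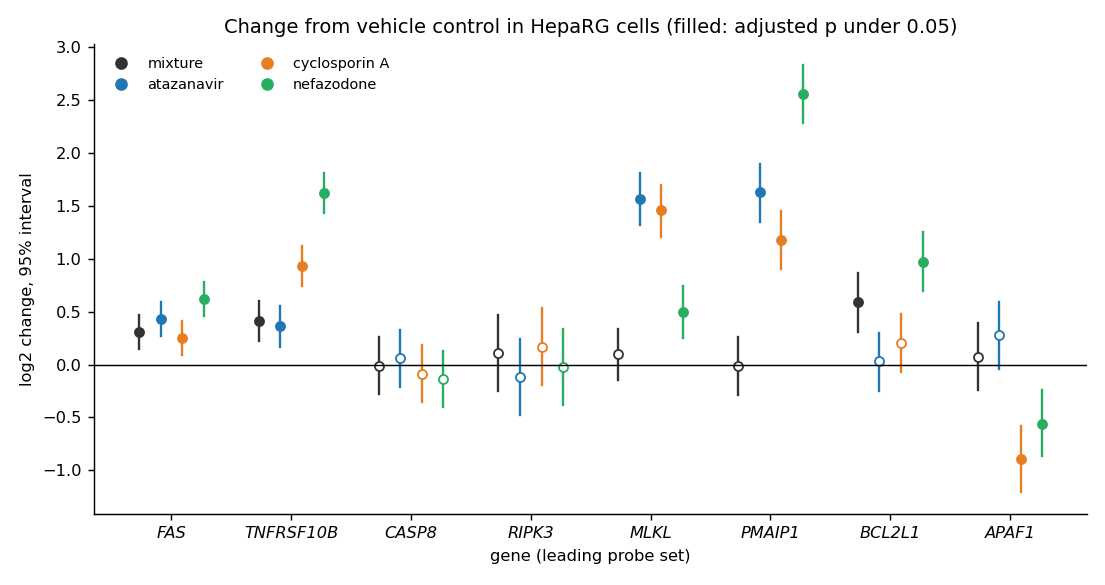
Log2 change of the 8 members against the vehicle control for the mixture and for each drug, with 95% intervals. Filled points passed an adjusted p of 0.05. PMAIP1 with nefazodone shows the highest change at 2.56 and APAF1 with cyclosporin A the lowest at -0.89, while the CASP8 and RIPK3 intervals all include 0.

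MLKL rose with each drug. Control arrays stood at 5.81, 5.86 and 5.60, and mixture arrays at 5.75, 5.86 and 5.95. Atazanavir arrays stood at 7.23, 7.53 and 7.21, cyclosporin A arrays at 7.05, 7.36 and 7.23, and nefazodone arrays at 6.13, 6.21 and 6.41. Each drug lay above control without overlap, while the mixture overlapped it. MLKL rose by 1.57 with atazanavir (SE 0.12, 2.97-fold, adjusted p = 1.07e-09). It rose by 1.46 with cyclosporin A (SE 0.12, 2.75-fold, adjusted p = 1.37e-09). It rose by 0.50 with nefazodone (SE 0.12, 1.41-fold, adjusted p = 0.00132), while the mixture differed by 0.10 (95% interval -0.15 to 0.34). MLKL has 1 probe set on this array, so no other probe set bears on these values.

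RIPK3, the kinase upstream of MLKL, stood between group means of 4.68 and 5.03, a little above the dim line. Its changes against control lay between -0.12 and 0.17, and none passed the test at an SE of 0.17. Cyclosporin A arrays were the most spread, at 4.73, 5.55 and 4.80, and all groups overlapped control. The 95% intervals of the 4 changes reached from -0.48 to 0.53.

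The death receptor TNFRSF10B, a receptor for the ligand TRAIL, rose in all 4 comparisons against control. Control arrays stood at 10.01, 10.01 and 9.88, mixture arrays at 10.34, 10.44 and 10.34, and atazanavir arrays at 10.31, 10.40 and 10.27. Cyclosporin A arrays stood higher, at 10.99, 11.02 and 10.69, and nefazodone arrays highest, at 11.66, 11.69 and 11.41. The mixture and atazanavir overlapped each other, and both lay between control and cyclosporin A. The log2 change was 0.41 with the mixture (adjusted p = 0.00612), 0.36 with atazanavir (adjusted p = 0.00397), 0.93 with cyclosporin A (adjusted p = 2.64e-08) and 1.62 with nefazodone (adjusted p = 1.51e-12), each with an SE of 0.09. Of its other 3 probe sets, the 2 that tracked it at Pearson's r of 0.96 and 0.97 over the 24 arrays rose by 1.98 and 2.00 with nefazodone. The other, dim in all groups, tracked it at 0.65.

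FAS, the receptor for FAS ligand, rose in the same 4 comparisons. Control arrays stood at 9.91, 9.97 and 9.94, mixture arrays at 10.17, 10.27 and 10.28, and atazanavir arrays at 10.38, 10.41 and 10.31. Cyclosporin A arrays stood at 10.26, 10.14 and 10.15, and nefazodone arrays at 10.69, 10.60 and 10.38. Each group lay above control. The log2 change was 0.31 with the mixture (adjusted p = 0.0152), 0.43 with atazanavir (adjusted p = 0.000126), 0.25 with cyclosporin A (adjusted p = 0.0139) and 0.62 with nefazodone (adjusted p = 4.35e-07), each with an SE of 0.08. The smaller changes were fragile: the mixture call was lost without any of 4 arrays (adjusted p from 0.0515 without control replicate 3 to 0.0636 without mixture replicate 2), and the cyclosporin A call without its replicate 1 (adjusted p = 0.0581). Fitting only the compared groups also ended both, at adjusted p = 0.0696 and 0.116. Probe sets of FAS disagreed for nefazodone, where 2 rose by 0.68 and 0.72 while the array values of another, at 9.27, 9.33 and 9.27, overlapped its control values of 9.28, 9.50 and 9.36.

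CASP8 stood at group means between 8.09 and 8.51. Its changes against control lay between -0.14 and 0.06, with intervals that reached from -0.40 to 0.33, and none passed the test. A second probe set of CASP8, with control arrays at 5.69, 5.58 and 5.68, was higher with cyclosporin A at 5.83, 6.00 and 5.96. That difference was 0.28 (adjusted p = 0.00754). The leading probe set differed by -0.09 in the same comparison, and the 2 probe sets correlated at only 0.26 over the 24 arrays.

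PMAIP1, the BH3-only gene also called NOXA, showed the highest change among the members. Control arrays stood at 8.06, 8.35 and 8.04, and mixture arrays at 8.07, 8.19 and 8.15. Atazanavir arrays stood at 9.69, 10.02 and 9.62, cyclosporin A arrays at 9.63, 9.44 and 8.91, and nefazodone arrays at 10.64, 10.75 and 10.74. Each drug lay above control without overlap, the mixture lay within the control range, and cyclosporin A was the most spread group. PMAIP1 rose by 1.63 with atazanavir (adjusted p = 3.67e-09), by 1.18 with cyclosporin A (adjusted p = 2.25e-07) and by 2.56 with nefazodone (5.89-fold, adjusted p = 4.42e-13), each with an SE of 0.13. Its difference with the mixture was -0.01 (95% interval -0.29 to 0.26). Its second probe set tracked the first at Pearson's r of 0.99 over the 24 arrays and rose by 1.85, 0.95 and 2.65 with the 3 drugs.

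BCL2L1, which protects mitochondria, rose with the mixture and with nefazodone. Control arrays stood at 8.30, 8.67 and 8.42, mixture arrays at 8.96, 9.21 and 9.0, and nefazodone arrays at 9.46, 9.67 and 9.18. Atazanavir and cyclosporin A arrays, from 8.39 to 8.86, overlapped control. The change was 0.59 with the mixture (SE 0.13, adjusted p = 0.00673) and 0.97 with nefazodone (SE 0.13, adjusted p = 1.83e-06). The mixture call was lost without mixture replicate 2 (adjusted p = 0.0509). The difference was 0.03 (95% interval -0.25 to 0.30) with atazanavir and 0.20 (95% interval -0.07 to 0.48) with cyclosporin A. Another probe set of BCL2L1 rose by 1.08 with the mixture (adjusted p = 5.45e-05) and by 1.89 with nefazodone, and also by 0.81 with cyclosporin A and 0.42 with atazanavir. That probe set stood at 5.38, 5.25 and 4.97 in control and at 7.21, 7.27 and 6.79 with nefazodone. A further probe set tracked the leading one at Pearson's r of 0.97 over the 24 arrays. Its mean was 6.08 in control, 6.85 with the mixture and 7.43 with nefazodone. It was 5.93 with atazanavir and 6.43 with cyclosporin A. The last probe set, at an r of 0.23, had means of 5.56 in control, 5.84 with the mixture and 5.79 with nefazodone. It stood at 5.74 with atazanavir and 5.68 with cyclosporin A. With the mean of all its probe sets, BCL2L1 rose by 0.37 with cyclosporin A (adjusted p = 0.021).

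APAF1 was the only measured member called lower against control. Control arrays stood at 6.99, 7.40 and 7.45, cyclosporin A arrays at 6.50, 6.27 and 6.39, and nefazodone arrays at 6.64, 6.80 and 6.74. Both drugs lay below every control array, while the atazanavir arrays, at 7.37, 7.31 and 8.0, and the mixture arrays, at 7.19, 7.47 and 7.41, overlapped control. APAF1 fell by 0.89 with cyclosporin A (SE 0.15, adjusted p = 5.75e-05) and by 0.56 with nefazodone (SE 0.15, adjusted p = 0.00471). With the mean of its 3 probe sets the nefazodone change was -0.20 (adjusted p = 0.0657), which ended the call, and the other 2 probe sets correlated with the leading one at -0.11 and 0.54. Ligated liver and HepaRG cells thus gave opposite signs for the leading probe set of this gene, higher after ligation and lower with these 2 drugs, and the difference between the species was not tested.

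The bile acid mixture was also added to each drug. Added to atazanavir, 2 of 8 members rose, where 8.32% of all genes were higher and 9.09% lower. Added to cyclosporin A, 2 rose and 2 fell, where 17.5% were higher and 17.7% lower. Added to nefazodone, limma called none of the 8, where 6.73% were higher and 7.16% lower. At an unadjusted p under 0.05, 3 members differed in that last comparison, TNFRSF10B, APAF1 and BCL2L1. The shares of all genes given here are at an adjusted p and are no background for that count.

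**Figure D4:**
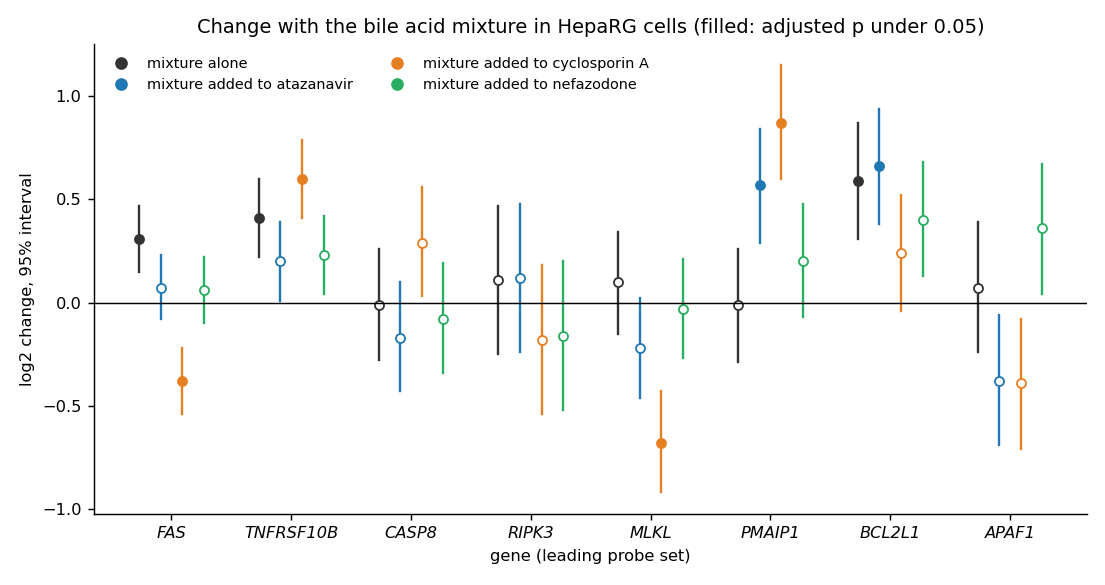
Log2 change of the 8 members when the mixture was given alone and when it was added to each drug, with 95% intervals. Filled points passed an adjusted p of 0.05. FAS and MLKL fell, by 0.38 and 0.68, where the mixture was added to cyclosporin A, and PMAIP1 rose there by 0.87 while the mixture alone left it at -0.01.

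With cyclosporin A the added mixture moved members in both directions. MLKL stood at 7.05, 7.36 and 7.23 with the drug alone and at 6.44, 6.47 and 6.69 with the mixture added, without overlap. It fell by 0.68 (SE 0.12, adjusted p = 9.87e-05). FAS stood at 10.26, 10.14 and 10.15 with the drug alone and at 9.80, 9.77 and 9.84 with the mixture added, below the control arrays. It fell by 0.38 (SE 0.08, adjusted p = 0.000478), and 3 of its other 4 probe sets also fell, by 0.41 to 0.49. PMAIP1 stood at 9.63, 9.44 and 8.91 with the drug alone and at 10.19, 10.25 and 10.16 with the mixture added, and it rose by 0.87 (adjusted p = 2.1e-05). TNFRSF10B stood at 10.99, 11.02 and 10.69 with the drug alone and at 11.49, 11.49 and 11.51 with the mixture added, and it rose by 0.60 (adjusted p = 2.09e-05). APAF1 was at its lowest with both, at 6.09, 6.00 and 5.89, and its difference from the drug alone of -0.39 (adjusted p = 0.0535) did not pass the test. The hepatocyte list was also at its lowest there, at 8.09 to 8.45, and the cholangiocyte list lay at 6.31 to 6.35, against 6.96 to 7.13 with the drug alone. The part of those markers in the member changes was not tested.

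With atazanavir the added mixture raised PMAIP1 and BCL2L1. PMAIP1 stood at 9.69, 10.02 and 9.62 with the drug alone and at 10.36, 10.38 and 10.30 with the mixture added, a rise of 0.57 (adjusted p = 0.00472). BCL2L1 stood at 8.43, 8.65 and 8.40 with the drug alone and at 9.15, 9.24 and 9.07 with the mixture added, a rise of 0.66 (adjusted p = 0.00124). Neither pair of groups overlapped. The second probe set of PMAIP1 differed by 0.30 (adjusted p = 0.264), which did not pass the test, while 2 other probe sets of TNFRSF10B rose by 0.35 and 0.37. Markers moved in the same comparison: 5 of 7 cholangiocyte markers rose, with list means of 6.87 to 6.95 without and 7.39 to 7.50 with the mixture, and 5 of 8 hepatocyte markers rose, with list means of 8.55 to 8.95 and 9.21 to 9.65. The part of those markers in the member changes was not tested. MLKL stood at 7.13, 7.30 and 6.88 with both, a difference of -0.22 (95% interval -0.46 to 0.02, adjusted p = 0.252) that did not pass the test. With nefazodone, BCL2L1 stood at 9.46, 9.67 and 9.18 without the mixture and at 10.03, 9.77 and 9.73 with it, a difference of 0.40 (SE 0.13, adjusted p = 0.0533). With the replicate number as a block (same-numbered arrays of these groups deviated together), the same difference had an adjusted p = 0.0113 and was the 1 call among the 8 members. MLKL stood at 6.18, 6.21 and 6.27 with nefazodone and the mixture, a difference from the drug alone of -0.03 (95% interval -0.27 to 0.21).

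The interaction, which sets the mixture's effect on drug-treated cells against its effect on vehicle-treated cells, was called for 3 of 8 members with cyclosporin A, where 24% of all genes were called. It was -0.77 for MLKL (SE 0.17, adjusted p = 0.00171), -0.69 for FAS (SE 0.11, adjusted p = 8.05e-05) and 0.89 for PMAIP1 (SE 0.19, adjusted p = 0.00147). FAS therefore rose with the mixture alone, fell with the mixture on top of cyclosporin A, and the difference between these effects passed the test. With atazanavir limma called no member, where 10.5% of all genes were called, and with nefazodone it called none, where 10.2% were called. At an unadjusted p under 0.05 there were FAS, PMAIP1 and APAF1 with atazanavir, and FAS with nefazodone. The share of all genes at that unadjusted threshold was not computed. Of these members, PMAIP1 with atazanavir had an interaction of 0.58 (95% interval 0.19 to 0.97, adjusted p = 0.0597). All interactions share the control and mixture arrays.

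The drugs, given alone at their different doses, were compared in 3 pairs, with p values adjusted over all probe sets within each pair. Atazanavir and cyclosporin A differed in 3 of 8 members, where 38.6% of all genes differed. TNFRSF10B was lower by 0.57 with atazanavir (adjusted p = 2.78e-05), APAF1 was higher by 1.17 (adjusted p = 1.98e-06), and PMAIP1 was higher by 0.45 (adjusted p = 0.0105) with groups that overlapped. The PMAIP1 call was lost without atazanavir replicate 2 (adjusted p = 0.0851) or cyclosporin A replicate 3 (a difference of 0.24, adjusted p = 0.109), and when only the compared groups were fitted (adjusted p = 0.12). Its second probe set differed by 0.90 (adjusted p = 0.000156) without overlap. For MLKL the 2 drugs differed by 0.11 (95% interval -0.13 to 0.36, adjusted p = 0.514), an interval that is small beside the change of either drug from control.

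Atazanavir and nefazodone differed in 5 of 8 members, where 38.8% of all genes differed. MLKL was higher with atazanavir by 1.07 (adjusted p = 1.07e-07) and APAF1 by 0.83 (adjusted p = 0.000108). TNFRSF10B, PMAIP1 and BCL2L1 were lower with atazanavir, by 1.26, 0.93 and 0.95. Cyclosporin A and nefazodone differed in 5 of 8 members, where 35.6% of all genes differed. MLKL was higher with cyclosporin A by 0.96 (adjusted p = 1.03e-06), and PMAIP1, BCL2L1, TNFRSF10B and FAS were lower by 1.38, 0.77, 0.69 and 0.37. Among the 3 drugs, TNFRSF10B, PMAIP1 and BCL2L1 were thus highest and MLKL lowest with nefazodone. With the mean of all probe sets, the FAS difference of -0.11 (adjusted p = 0.225) between cyclosporin A and nefazodone and the APAF1 difference of 0.17 (adjusted p = 0.14) between atazanavir and nefazodone were not called. That FAS call was also lost when only the compared groups were fitted (adjusted p = 0.0577).

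Over the 24 HepaRG arrays, which hold 8 treatments and so share large differences, TNFRSF10B varied with PMAIP1 at Pearson's r of 0.79 and with BCL2L1 at 0.74. It varied against APAF1 at -0.58. FAS varied with BCL2L1 at 0.65. MLKL correlated weakly with other members, at -0.02 with TNFRSF10B, 0.38 with PMAIP1 and -0.02 with RIPK3. These values are descriptions of these arrays. The genes whose levels were most like a member's, of all genes above the dim line, were MTAP (0.88) and RPS15 (0.87) for MLKL, CAMTA2 and DDX10 (both 0.98) for TNFRSF10B, and TOR2A (0.93) and INPP1 (0.92) for FAS. For PMAIP1 they were PTX3 (0.98) and GPRC5A (0.97), for BCL2L1 HLA-E (0.93) and FBLIM1 (0.91), and for APAF1 LEO1 and NEK2 (both 0.92). For the members that were not called, they were BECN1 (0.88) and UBA3 (0.86) for CASP8, and SLC4A1 (0.81) and DOK3 (0.77) for RIPK3.

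The other genes of these pathways were read from 9 lists. After ligation, 31 of 68 measured genes rose and 6 fell. Of 74 measured in HepaRG cells, 14 rose and 1 fell with the mixture, 24 rose and 8 fell with atazanavir, 32 rose and 11 fell with cyclosporin A, and 36 rose and 12 fell with nefazodone. The share of all genes called in each of these comparisons is given above.

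Among regulators of RIPK1 and necroptosis, 8 of 17 rose and 1 fell after ligation, led by Tnfaip3 (A20, a ubiquitin-editing brake on inflammatory signalling), which rose by 1.84. In HepaRG cells 2, 5, 7 and 9 of 14 rose with the mixture, atazanavir, cyclosporin A and nefazodone. The leading genes were TLR3, a receptor for double-stranded RNA, which rose by 0.66 with the mixture, TNFAIP3, which rose by 1.05 with atazanavir, and RBCK1 (HOIL-1, of the linear ubiquitin ligase), which rose by 2.68 with nefazodone.

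Among p53 and stress regulators, 3 of 7 rose and 1 fell after ligation, where Atf3, a stress-induced transcription factor, rose by 1.79 and Atf4 fell by 0.49. In HepaRG cells 3 of 8 rose and 1 fell with the mixture, and 6, 5 and 5 of 8 rose and 1 fell with atazanavir, cyclosporin A and nefazodone. ATF3 rose by 0.70 with the mixture, by 2.42 with atazanavir, by 3.29 with cyclosporin A and by 4.89 with nefazodone. DDIT3 (CHOP), a factor of the unfolded protein response, rose by 1.29, 3.30 and 3.86 with the 3 drugs, and its target TRIB3 by 1.15, 2.71 and 3.85. FOXO3 fell by 0.61 with atazanavir and by 0.79 with cyclosporin A.

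Among death receptors, ligands and adaptors, 4 of 8 rose after ligation. In HepaRG cells 2 of 12 rose and 1 fell with atazanavir, 4 rose and 3 fell with cyclosporin A, and 5 rose and 2 fell with nefazodone. The ligand TNFSF10 (TRAIL), which binds TNFRSF10B, went the other way from its receptor: it stood at a mean of 9.52 in control, 6.43 with atazanavir, 8.05 with cyclosporin A and 5.24 with nefazodone. It fell by 3.09, 1.47 and 4.28, each with an SE of 0.43.

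Among caspases and apoptosome genes, 4 of 8 rose and 1 fell after ligation, where Cycs, cytochrome c, fell by 0.36. In HepaRG cells 2 of 9 rose and 3 fell with cyclosporin A, and 4 rose and 3 fell with nefazodone. BIRC5 (survivin), an inhibitor of apoptosis that dividing cells express, fell by 3.78 with cyclosporin A and by 2.37 with nefazodone, and the executioner caspase CASP6 fell by 1.10 with nefazodone. Of other BH3-only genes, 3 of 7 rose and 1 fell after ligation, and Bid, which links CASP8 to mitochondria, rose by 1.08. In HepaRG cells none of 8 other BH3-only genes was called with the mixture, and 1 rose and 1 fell with atazanavir. With cyclosporin A 3 rose and none fell, and with nefazodone none rose and 1 fell. Both measured pore-forming genes rose after ligation, and in HepaRG cells 2 of 3 rose with the mixture. With atazanavir and with nefazodone 2 of these 3 rose and 1 fell, and with cyclosporin A 1 rose and 1 fell. In the interferon list 2 of 8 rose and 1 fell after ligation, with Gbp2 higher by 1.43, and 6 of 8 rose with cyclosporin A and with nefazodone, while 1 and 2 fell. With the mixture 3 of 8 rose and none fell, and with atazanavir 1 rose and 2 fell. IRF9 rose by 0.91 with the mixture and by 1.61 with cyclosporin A, and ISG15 rose by 0.79 with the mixture. CXCL10 fell by 1.75 with atazanavir and by 1.63 with nefazodone, and GBP2 fell by 0.62 with atazanavir. For pyroptosis and membrane rupture 3 of 7 rose after ligation. In HepaRG cells 2 of 7 rose and none fell with the mixture, and 3 rose and 1 fell with atazanavir. With cyclosporin A 2 rose and 2 fell, CASP1 by 0.61, and with nefazodone 3 rose and 2 fell. Of the other anti-apoptotic genes 2 of 4 rose and 1 fell after ligation, and 2 of 5 rose with cyclosporin A and with nefazodone.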

How the data were processed

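RNA of 36 samples had been hybridised to Affymetrix 3′ expression arrays. The deposited values are log2 levels per probe set, which the authors computed by RMA (robust multi-array averaging) according to the submitters' processing notes, without a stated version. That method subtracts background, equalises the distributions of the arrays and combines probes, and raw scans were not used here. Gene names came from the annotation of each platform, and only those with 1 gene symbol were tested. Every column matched a sample.

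Group means were fitted with limma 3.58.1 (lmFit and eBayes, 2-sided) in R 4.3.3, in 1 fit of 12 mouse arrays with 10 residual degrees of freedom and 1 fit of 24 HepaRG arrays with 16. A call is an adjusted p (Benjamini-Hochberg over all tested probe sets of a comparison) under 0.05. Background shares count genes by their leading probe set. The fit was tested on simulated data. The number of arrays limits the precision.

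The members, the pathway and marker lists and the rules for naming were chosen with earlier results of these data known. Every probe set of a member was read, but not all are described. The other pathway genes named come from up to 4 rises and 4 falls per comparison (called, groups not overlapping). Not all of these are described either. The 2 genes most correlated with a member are named. Alternatives were another quantile normalization, centring, 1 probe set or the mean of all per gene, a filter on dim probe sets, a variance trend, only the compared groups, a replicate block and leaving out arrays. Arrays with the same replicate number deviated together with every correlation over 0.1 for control with the mixture (0.19 to 0.26), control with nefazodone (0.11 to 0.18) and nefazodone with or without the mixture (0.13 to 0.29). No label ties a number to a batch, so this pairing rests on the data.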

Additional observations from a re-analysis of the deposited data

Results flagged for a closer look

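Each of 14 mouse probe sets was looked at in the 6 sham and in the 6 ligated livers, which gave 28 sets of values. In 4 of the 28 a liver lay far from the others by Dixon's criterion. Chance meets this criterion in about 1 in 20 independent sets, but these sets share the same livers and are not independent. Sham 2 stood at 6.08 for Pmaip1 and at 7.03 for a second probe set of Bcl2l1, above the other sham livers. Sham 5 stood at 7.89 for Bbc3, below the others. CBDL 6 stood at 4.01 for a dim probe set of Tnfrsf10b, below the other ligated livers.

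The effect of the bile acid mixture differed with and without cyclosporin A in the limma interaction test for 3 members. For MLKL the interaction was -0.77. For FAS it was -0.69, and -0.57, -0.65, -0.72 and -0.93 at its other 4 probe sets. For PMAIP1 it was 0.89, and 1.23 at its second probe set. With atazanavir a mostly dim probe set of FAS had an interaction of -0.86, and with nefazodone a probe set of BCL2L1 had -0.77, while the leading probe sets of both genes were not called there.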

How the results depend on the processing

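Of 43 called member changes, 336 of 344 values under alternatives other than leaving out 1 array kept direction and call, 8 lost the call and none reversed. Leaving out 1 array kept 286 of 294 and lost 8. Of 20 changes against sham or control that were not called, 12 of 159 values reversed and 4 became calls, and leaving out 1 array reversed 19 of 156.

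The reversals were near 0. After quantile normalization the changes were 0.0813 for Tnfrsf10b and -0.0364 for Bcl2l1 with ligation, -0.0204 for BCL2L1 with atazanavir and 0.0228 for RIPK3 with nefazodone. After centring they were 0.0288 for Tnfrsf10b, 0.04 for Casp8 and 0.0167 for RIPK3 with nefazodone. Without CBDL 1 and sham 2 the Tnfrsf10b change was 0.0319. With the mean of all probe sets, CASP8 changed by 0.0113 with the mixture, -0.00108 with atazanavir and 0.0296 with cyclosporin A, and APAF1 by -0.0324 with atazanavir. Leaving out 1 array gave -0.114 to 0.0497 for Tnfrsf10b and -0.0425 to 0.000731 for Casp8 with ligation. With the mixture it gave -0.116 to 0.124 for CASP8, -0.0279 to 0.213 for RIPK3, -0.0709 to 0.0859 for PMAIP1 and -0.0697 to 0.16 for APAF1. It gave -0.0554 to 0.13 for BCL2L1 and -0.219 to 0.0185 for RIPK3 with atazanavir, and for RIPK3 -0.0908 to 0.319 with cyclosporin A and -0.118 to 0.0324 with nefazodone. The cause was not tested.

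The 0 members called when the mixture was added to nefazodone became 1 with 1 probe set a gene, the dim filter, centring, the variance trend or the replicate block, and 0 to 1 with an array left out (1 without nefazodone replicate 2). The 0 called for the atazanavir interaction became 1 with 1 probe set a gene, the dim filter, the trend, the mean of probe sets, only the compared groups or the replicate block (PMAIP1, adjusted p = 0.036), and 0 to 1 with an array left out (1 without atazanavir replicate 2). For the nefazodone interaction it was 0 to 1 (1 without nefazodone replicate 3). The mixture against control gave 1 to 3. The replicate block changed no other count of member calls. With 1 probe set a gene or the dim filter, both the fit and the adjustment of p covered fewer probe sets. The cause of the changed counts was not tested for any alternative. Levels near the dim line limit what can be said of Pmaip1, Tnfrsf10b and RIPK3, and of the size of the Apaf1 change.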
